A study of Mus musculus with 12 samples.

Results

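The expression of 7 genes of sympathetic innervation and catecholamine clearance, Th, Ngfr, Bdnf, S100b, Clstn3, Maoa and Maob, was examined in iWAT, the inguinal depot of white fat, where cold induces beige adipocytes. The genes were taken by symbol from the count table of 23420 genes, and all 7 were found. The 12 libraries came from male C57BL/6 mice, aged 10 weeks, in 4 groups of 3. WT mice carried HIF2a loxP/loxP without Cre, and HIF2α AKO mice carried HIF2a loxP/loxP with Adipoq-Cre, which is active in adipocytes. The TN groups were kept at thermoneutrality (30 °C) for 1 week and the cold groups at 4 to 6 °C for 3 days, so temperature and length of exposure cannot be told apart. The whole fat pad was sequenced, with its vessels, immune cells and nerve fibers, which the Cre does not target.

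Sympathetic nerves release norepinephrine in fat upon cold, and β-adrenergic receptors of adipocytes pass the signal to cAMP and PKA. Norepinephrine is made from tyrosine by Th, Ddc and Dbh, of which tyrosine hydroxylase (Th) is the rate-limiting enzyme, and it is cleared by transporters and by the monoamine oxidases Maoa and Maob. The cell bodies of sympathetic neurons lie in ganglia outside the fat pad. Bdnf is a neurotrophin and Ngfr is the p75 neurotrophin receptor. S100b is a calcium-binding protein known as a glial marker, which is also made by thermogenic adipocytes and acts as a neurotrophic factor there. Clstn3 encodes calsyntenin 3, a synaptic membrane protein, and the same locus gives Clstn3b, a product of thermogenic adipocytes that promotes S100b secretion and sympathetic innervation. The counts are per gene and do not tell Clstn3 from Clstn3b.

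Promoter sequences are shown for the pair of members that rose in cold, Clstn3 and S100b, and for Th. Th was added since it shares with the first Clstn3 start a full cyclic AMP response element, the DNA element bound by the PKA target CREB. RefSeq promoters (GRCm38.p6) were found for 6 of the 7 genes, all but Maob. Each sequence runs 5′ to 3′ on the gene's strand from 250 bases before the start to 30 bases after it. Capitals mark TGACGTCA, the full cyclic AMP response element, and GCGTG, a hypoxia response core.
Clstn3, the first start, chr6:124464755-124465034, minus strand: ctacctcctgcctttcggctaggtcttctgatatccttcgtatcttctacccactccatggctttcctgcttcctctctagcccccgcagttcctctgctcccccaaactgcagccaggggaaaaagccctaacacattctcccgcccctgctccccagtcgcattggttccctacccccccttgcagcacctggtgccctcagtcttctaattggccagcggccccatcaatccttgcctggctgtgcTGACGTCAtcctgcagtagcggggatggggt
S100b, chr10:76253586-76253865, plus strand: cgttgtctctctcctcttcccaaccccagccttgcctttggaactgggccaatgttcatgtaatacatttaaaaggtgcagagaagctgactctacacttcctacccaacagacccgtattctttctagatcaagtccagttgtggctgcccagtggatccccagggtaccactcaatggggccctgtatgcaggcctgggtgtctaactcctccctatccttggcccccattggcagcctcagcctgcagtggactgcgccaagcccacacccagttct
Th, chr7:142899966-142900245, minus strand: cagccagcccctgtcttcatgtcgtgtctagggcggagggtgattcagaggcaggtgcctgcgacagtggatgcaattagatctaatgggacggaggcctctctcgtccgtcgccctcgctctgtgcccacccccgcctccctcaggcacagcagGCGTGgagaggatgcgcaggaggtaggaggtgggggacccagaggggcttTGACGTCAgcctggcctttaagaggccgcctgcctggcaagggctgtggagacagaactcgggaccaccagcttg

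The element TGACGTCA begins 45 bases before the start of Th and 1 base before the first start of Clstn3, so that it runs across that start. Windows of 300 bases, to 50 bases after the start, were searched on both strands in all RefSeq promoters, and 588 of 32851 windows, or 1.79%, held TGACGTCA. The shorter string TGACG, which lies within the full element, was in 20.8% of windows. Of the members it was in those of Th, the first Clstn3 start, Maoa and the third of the Bdnf starts. The hypoxia response cores ACGTG and GCGTG were in 19.6% and 32.4% of windows. Among the members they were in windows of Ngfr and Bdnf, and GCGTG was in that of Th. AGGTCA, a string found in nuclear receptor elements, was in 16.3% of windows and, of the members, in that of the fourth Bdnf start. The S100b window and that of the second Clstn3 start held none of these 5 strings, and the Maoa window held TGACG alone. These matches describe letters and not bound sites, and counts per gene do not show which Clstn3 start was used in cold. The promoter entries name the gene alone, so the start of Clstn3b may not be among those searched.

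The libraries held between 22368316 and 35204631 counts on genes, and 15306 genes were tested with edgeR's quasi-likelihood test over all 12 libraries. Levels are given as CPM, that is counts scaled to library size with TMM factors. Ucp1, the uncoupling protein of beige adipocytes, was 0.432 ± 0.223 CPM (SD, n = 3) in TN WT and 2640 ± 752 CPM (SD, n = 3) in cold WT. Epas1, the gene of HIF2α, was not detectably lower where the labels give HIF2α AKO. In libraries labelled HIF2α AKO it was at 348 ± 53.8 CPM against 360 ± 76.8 in TN WT, and at 826 ± 139 against 627 ± 101 in cold WT (SD, n = 3), so each genotype difference below is between libraries as labelled. Counts per gene do not show whether the floxed exon was lost. Of the 12 libraries, 3 stood apart by markers of other tissues. The summed CPM of 12 skeletal muscle markers was 1260 in cold HIF2α AKO replicate 1 and 1540 in TN HIF2α AKO replicate 2, against 13.3 to 92.1 in the other libraries. Epithelium markers summed to 265 CPM in TN WT replicate 3 and to at most 11.6 CPM elsewhere.

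Between cold WT and TN WT, 2 of the 6 tested members, Clstn3 and S100b, passed an adjusted p of 0.05, and both were higher in cold. Of all genes tested, 21.3% were called in this comparison and 15.6% were called and higher in cold. The same pair was called, and higher in cold, between cold and TN HIF2α AKO, where 27% of all genes were called and 15.6% were called and higher. Ngfr, Bdnf, Maoa and Maob were not called in either comparison, and Th was not tested because its counts were too low. The median log2 fold change of the 6 members was 0.61 in WT and 0.73 in HIF2α AKO, against -0.03 and -0.05 over all tested genes. The members were chosen with earlier results of these data known, so the medians are a description and not a test.

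**Figure D1:**
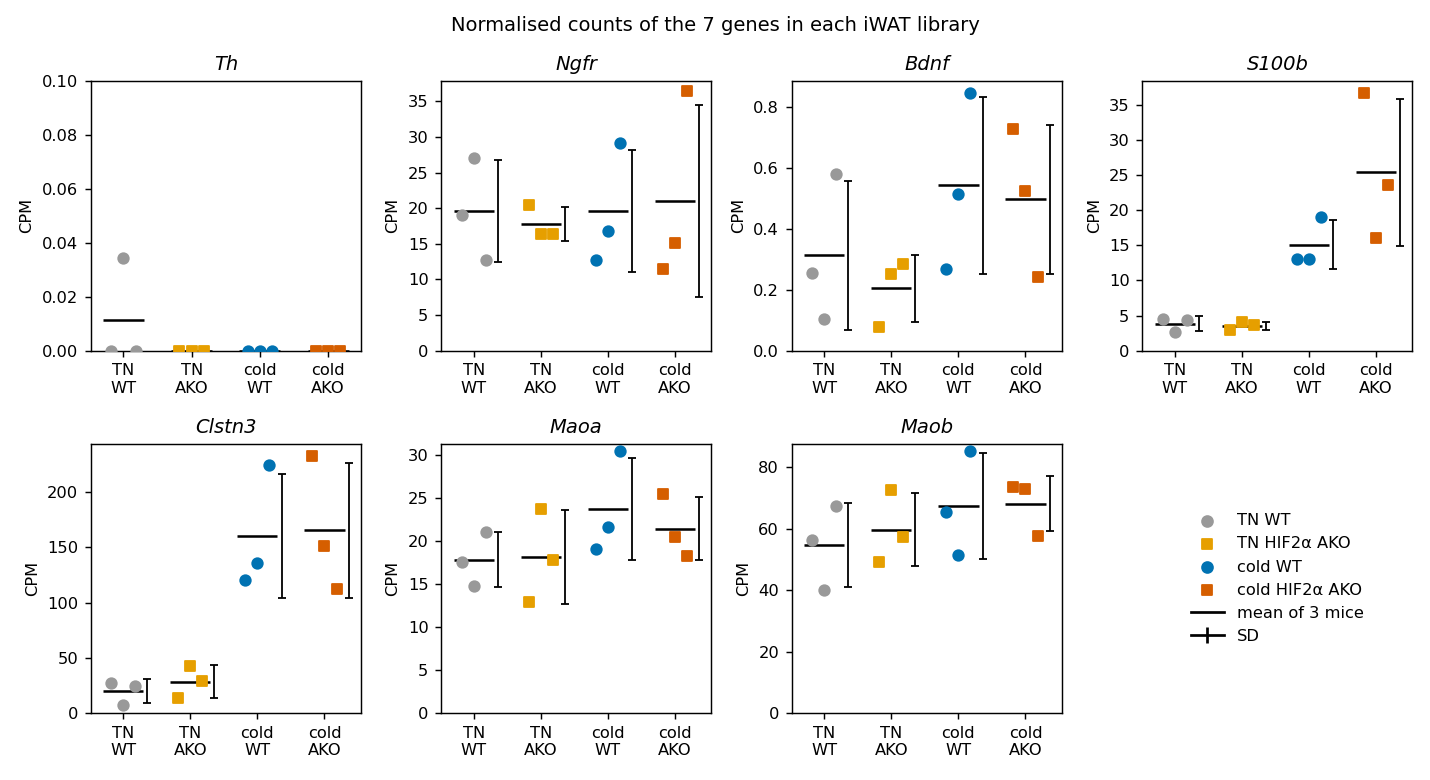
Level of each of the 7 genes in each library, in CPM on a linear axis that starts at 0 and differs between genes; each point is 1 mouse, the line is the mean and the bar beside it the SD (n = 3 per group, no SD drawn for Th). All 6 cold libraries lie above all 6 TN libraries for Clstn3 and S100b, whereas Ngfr, Bdnf, Maoa and Maob overlap between the groups and Th is at 0 in 11 of 12 libraries.

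Clstn3 (ENSMUSG00000008153.11, GRCm38 chromosome 6 from 124430759 to 124464794, minus strand) varied most among the members, with a 31.3-fold range over the 12 libraries. In TN WT its level was 27.7, 7.44 and 24.4 CPM in the 3 mice, and in TN HIF2α AKO it was 13.6, 43.0 and 29.5 CPM. Upon cold it was 120, 136 and 224 CPM in WT and 232, 151 and 112 CPM in HIF2α AKO. The lowest cold library was thus above the highest TN library, and the genotypes overlapped at both temperatures. The group means were, in descending order, 165 ± 61.2 CPM in cold HIF2α AKO, 160 ± 56.2 CPM in cold WT, 28.7 ± 14.7 CPM in TN HIF2α AKO and 19.8 ± 10.9 CPM in TN WT (SD, n = 3). Its log2 fold change from TN to cold was 3.01 in WT (standard error 0.54, adjusted p = 0.00401 by edgeR's quasi-likelihood F and the Benjamini-Hochberg method), which is 8.04-fold with a 95% interval of 3.54 to 18.3. In HIF2α AKO the log2 fold change was 2.52 (standard error 0.53, edgeR adjusted p = 0.00722), which is 5.75-fold (95% interval 2.57 to 12.8). In both genotypes the cold libraries lay above the TN libraries in 3 of 3 mice, and the exact permutation test gave its smallest possible p of 0.1 (two-sided). In bulk tissue, a change in the number of cells of a type and a change in RNA per cell cannot be told apart.

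The other calsyntenin genes did not pass the test upon cold. Clstn1 was 74.0 ± 5.06 CPM in TN WT and 78.4 ± 7.63 CPM in cold WT, with a log2 fold change of 0.08 (95% interval -0.13 to 0.30, edgeR adjusted p = 0.544). Clstn2 was 2.59 ± 0.93 CPM in TN WT and 2.83 ± 0.25 CPM in cold WT, with a log2 fold change of 0.13 (95% interval -0.70 to 0.95, edgeR adjusted p = 0.819). In HIF2α AKO the log2 fold changes were 0.14 for Clstn1 (95% interval -0.08 to 0.35) and 0.22 for Clstn2 (95% interval -0.59 to 1.03), and neither passed. Per kilobase of exon, the level of Clstn3 was below that of Clstn1 at TN (3.99 against 15.9 CPM per kb in WT) and above it in cold (32.2 against 16.8 CPM per kb in WT). The order of the family thus changed between the temperatures, with Clstn2 lowest in all 4 groups at 0.455 to 0.745 CPM per kb.

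**Figure D2:**
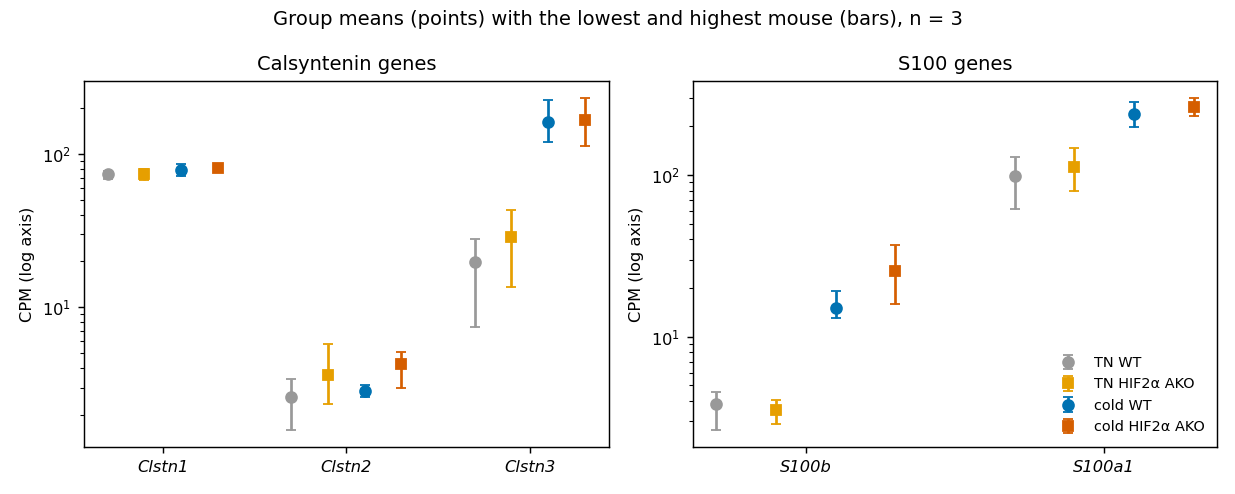
Levels of the calsyntenin genes (left) and of S100b and S100a1 (right) by group, in CPM on a log axis; points are means of 3 mice and bars run from the lowest to the highest mouse. Clstn3, S100b and S100a1 are higher in both cold groups, while Clstn1 stays between 67.0 and 86.4 CPM and Clstn2 between 1.58 and 5.75 CPM.

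S100b (ENSMUSG00000033208.7, chromosome 10 from 76253853 to 76261159, plus strand) was low at TN, with 4.58, 2.64 and 4.33 CPM in WT and 2.88, 4.08 and 3.6 CPM in HIF2α AKO. Upon cold it was 13.1, 13.1 and 19.1 CPM in WT and 36.7, 16 and 23.6 CPM in HIF2α AKO. Every cold library was above every TN library, and 2 of the 3 cold HIF2α AKO mice were above all cold WT mice. The log2 fold change upon cold was 1.97 in WT (standard error 0.31, edgeR adjusted p = 0.00236), which is 3.91-fold (95% interval 2.42 to 6.31). In HIF2α AKO it was 2.85 (standard error 0.32, edgeR adjusted p = 0.000323), which is 7.18-fold (95% interval 4.39 to 11.8). The cold mice were higher in 3 of 3 per genotype, with the smallest exact p of 0.1. Without the libraries rich in muscle markers, the log2 fold change in HIF2α AKO was 2.61 for S100b and 2.61 for Clstn3, and both were called (edgeR adjusted p = 0.00272 and 0.0294).

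The difference in S100b between the cold genotypes did not pass the correction. Libraries labelled HIF2α AKO were higher by 0.75 on the log2 scale (standard error 0.30, 95% interval 0.09 to 1.4), with an unadjusted p of 0.0286 and an adjusted p of 1 from edgeR, and the exact permutation p was 0.2. Of all genes tested, 451 had an unadjusted p under 0.05 in this comparison. The value fell to 0.39 without cold HIF2α AKO replicate 1, which has the highest S100b level and summed muscle markers of 1260 CPM. The interaction of genotype and temperature was 0.88 for S100b (95% interval -0.08 to 1.83, unadjusted p = 0.0681, adjusted p = 1 from edgeR), and 0.52 without cold HIF2α AKO replicate 1.

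S100a1, which encodes a close relative of S100b found mainly in muscle, also rose upon cold, with log2 fold changes of 1.28 in WT (edgeR adjusted p = 0.00966) and 1.23 in HIF2α AKO (edgeR adjusted p = 0.0104). Its level was 98.0 ± 34.5 CPM in TN WT and 239 ± 41.0 CPM in cold WT (SD, n = 3). In the list of 7 S100B and calsyntenin genes, all of which were tested, 3 were called and higher in cold in each genotype, namely Clstn3, S100b and S100a1, and 4 did not pass. The share over all tested genes was 15.6% in each genotype. Dip2a runs on the opposite strand over 1731 bases of the S100b span and shares 0 exon bases with it. It was singled out after its values were seen, and its log2 fold changes upon cold were 0.80 in WT (edgeR adjusted p = 0.00693) and 1.07 in HIF2α AKO (edgeR adjusted p = 0.00124), smaller than those of S100b.

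**Figure D3:**
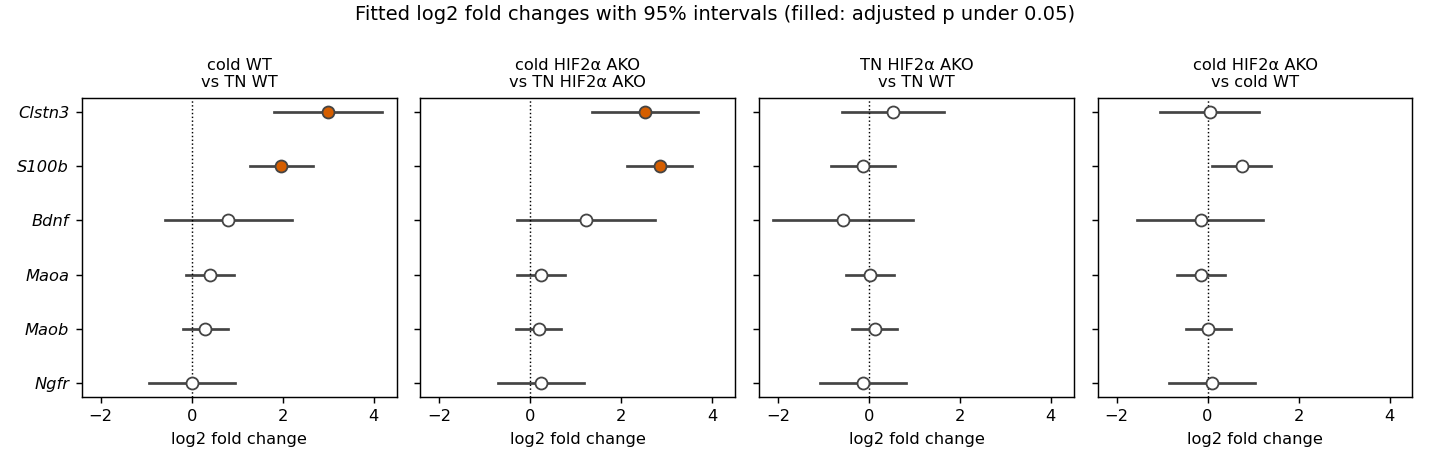
Fitted log2 fold change of the 6 tested members in the 4 pairwise comparisons (x axis), with 95% intervals as lines; filled points passed an adjusted p of 0.05 by edgeR. Clstn3 (3.01 and 2.52) and S100b (1.97 and 2.85) are filled in the cold against TN panels, and no point is filled between the genotypes.

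Transcripts of the enzymes specific to norepinephrine synthesis were nearly undetected in the fat pad. Th (ENSMUSG00000000214.11, chromosome 7 from 142892752 to 142931128, minus strand) had 1 count in TN WT replicate 2 and 0 counts in the other 11 libraries. A count of 0 allows up to 3 counts, or 0.0764 to 0.145 CPM per library, counting error only, so a difference in Th between groups was not detectable at this depth. Dbh, dopamine β-hydroxylase, had a mean of 0.0114 CPM in TN WT, 0.0134 CPM in cold HIF2α AKO, and 0 counts in the other groups. Ddc, aromatic amino acid decarboxylase, was tested and fell in WT from 1.25 ± 0.21 to 0.502 ± 0.224 CPM (SD, n = 3), a log2 fold change of -1.31 (standard error 0.36, edgeR adjusted p = 0.027). In HIF2α AKO the log2 fold change of Ddc was -0.94 (edgeR adjusted p = 0.0836), which did not pass. Slc18a2, the vesicular monoamine transporter, and Slc6a2, the norepinephrine transporter of sympathetic endings, were not called. Slc6a2 was at 0.600 to 0.847 CPM in the group means, and its log2 fold change was -0.30 in WT (95% interval -1.28 to 0.68). Of the 12 genes listed for catecholamine synthesis, storage and release, 6 were tested, 1 (Ddc) fell upon cold in WT and none was called in HIF2α AKO, with medians of -0.26 and -0.33 on the log2 scale. Over all 15306 tested genes, 870 in WT and 1757 in HIF2α AKO were called and lower in cold. Pnmt, the enzyme that forms epinephrine, had 0 counts in every library.

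Ngfr (ENSMUSG00000000120.6, chromosome 11 from 95568818 to 95587735, minus strand) was at 19.0, 27.0 and 12.7 CPM in TN WT and 20.5, 16.4 and 16.4 CPM in TN HIF2α AKO. In cold it was 12.8, 16.8 and 29.2 CPM in WT and 11.4, 15.1 and 36.4 CPM in HIF2α AKO. The group means lay between 17.8 and 21.0 CPM, in the order cold HIF2α AKO, cold WT, TN WT and TN HIF2α AKO, and no neighbours differed beyond their spread. The log2 fold change upon cold was 0.00 in WT (95% interval -0.95 to 0.95) and 0.24 in HIF2α AKO (95% interval -0.71 to 1.19). In WT the interval corresponds to 0.52-fold to 1.93-fold. The spread was widest in cold HIF2α AKO, where the highest mouse was 3.18 times the lowest.

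Bdnf (ENSMUSG00000048482.14, chromosome 2 from 109674700 to 109727007, plus strand) was the least abundant of the tested members, with 2 to 21 counts per library. It was 0.255, 0.103 and 0.580 CPM in TN WT, 0.0779, 0.251 and 0.283 CPM in TN HIF2α AKO, 0.268, 0.513 and 0.845 CPM in cold WT and 0.726, 0.523 and 0.240 CPM in cold HIF2α AKO. The cold groups had the higher means, but cold and TN libraries overlapped in both genotypes. Its log2 fold change upon cold was 0.81 in WT (95% interval -0.59 to 2.21, edgeR adjusted p = 0.357) and 1.22 in HIF2α AKO (95% interval -0.29 to 2.73, edgeR adjusted p = 0.192). In WT it was 0.33 without cold WT replicate 3 and 1.54 without TN WT replicate 3. The intervals include both no change and rises of up to 4.62-fold in WT and 6.64-fold in HIF2α AKO. The antisense gene Gm45346 shares 896 bases, or 14.4%, of the Bdnf exons, and the strand setting of the counting is not given in the sources used here.

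Among the partners of these genes, neurturin (Nrtn), a ligand of the GDNF family that acts on neurons through Ret and Gfra2, rose upon cold in both genotypes. It went from 0.446 ± 0.123 to 1.16 ± 0.11 CPM in WT and from 0.298 ± 0.073 to 1.78 ± 0.31 CPM in HIF2α AKO (SD, n = 3), with no overlap between cold and TN. Its log2 fold changes were 1.36 (edgeR adjusted p = 0.00792) and 2.55 (edgeR adjusted p = 0.000331). Sorcs2, a coreceptor of Ngfr for proneurotrophins, fell in WT by 0.77 on the log2 scale (edgeR adjusted p = 0.043) and was at -0.31 in HIF2α AKO (edgeR adjusted p = 0.331). Ntrk2, the receptor of Bdnf, and Sort1, a coreceptor of Ngfr, were not called. Of the 18 genes listed for neurotrophins and their receptors, 15 were tested. In WT 1 rose and 1 fell, and in HIF2α AKO 1 rose, so 13 and 14 genes did not pass. Over all 15306 tested genes, 15.6% were called and higher in cold in each genotype, and 870 were called and lower in WT.

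Maoa and Maob, which oxidize monoamines at the outer mitochondrial membrane, lie next to each other on chromosome X, Maoa from 16619698 to 16687818 on the plus strand (ENSMUSG00000025037.6) and Maob from 16709282 to 16817366 on the minus strand (ENSMUSG00000040147.14). Maoa was 17.6, 14.8 and 21.1 CPM in TN WT, 12.9, 23.7 and 17.8 CPM in TN HIF2α AKO, 19.1, 21.6 and 30.4 CPM in cold WT and 25.5, 20.5 and 18.3 CPM in cold HIF2α AKO. Maob was 56.3, 40.2 and 67.4 CPM in TN WT, 49.1, 72.5 and 57.3 CPM in TN HIF2α AKO, 65.5, 51.3 and 85.3 CPM in cold WT and 73.4, 72.9 and 57.7 CPM in cold HIF2α AKO. All groups overlapped for both genes, and their group means differed from their neighbours by less than 1 SD.

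The log2 fold change of Maoa upon cold was 0.41 in WT (95% interval -0.12 to 0.94, edgeR adjusted p = 0.222) and 0.24 in HIF2α AKO (95% interval -0.29 to 0.77, edgeR adjusted p = 0.469). That of Maob was 0.30 in WT (95% interval -0.19 to 0.80, edgeR adjusted p = 0.332) and 0.19 in HIF2α AKO (95% interval -0.31 to 0.69, edgeR adjusted p = 0.544). These changes varied with the libraries used. Leaving out 1 library, that of Maoa ranged from 0.19 (without cold WT replicate 3) to 0.55 in WT and from 0.043 (without TN HIF2α AKO replicate 1) to 0.48 (without TN HIF2α AKO replicate 2) in HIF2α AKO, and that of Maob from 0.097 to 0.48 in WT and 0.066 to 0.35 in HIF2α AKO, with the lowest and the highest values given by leaving out the same libraries. In WT the intervals reach up to 1.91-fold for Maoa and 1.74-fold for Maob. Maob was the more abundant enzyme in every library. Per kilobase of exon, the ratio of the level of Maob to that of Maoa was 4.52 ± 0.42 in TN WT, 5.02 ± 0.59 in TN HIF2α AKO, 4.29 ± 0.79 in cold WT and 4.78 ± 0.51 in cold HIF2α AKO (SD, n = 3). The ratios overlapped in all groups.

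Of the 12 genes listed for catecholamine uptake and breakdown, 10 were tested, 2 rose in WT and 1 rose in HIF2α AKO upon cold. Over all tested genes, 15.6% were called and higher in cold in each genotype. Slc22a2, an organic cation transporter that takes up monoamines, rose in both genotypes from a low level, by 2.82 on the log2 scale in WT (edgeR adjusted p = 0.00117) and 3.58 in HIF2α AKO (edgeR adjusted p = 0.000328). It was at 0.381 ± 0.114 CPM in TN WT and 2.69 ± 1.03 CPM in cold WT. Akr1a1, an aldehyde reductase, rose in WT by 0.46 (edgeR adjusted p = 0.0331) and was at 0.34 in HIF2α AKO (edgeR adjusted p = 0.0791). Slc22a3, the extraneuronal monoamine transporter, was more abundant than Slc22a2, at 42.2 ± 13.7 CPM in TN WT, and was not called (0.06 in WT and 0.50 in HIF2α AKO).

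Between the genotypes, 0 of the 6 tested members were called at TN and 0 in cold, and 0.00653% of all genes were called in each of these comparisons. This share is 1 gene, Zfp949, in each. At an unadjusted p under 0.05, S100b in cold was the 1 member that passed. At TN the log2 difference of HIF2α AKO from WT was 0.53 for Clstn3 (95% interval -0.58 to 1.65, and 0.12 without TN HIF2α AKO replicate 2, which is rich in muscle markers, or 0.87 without replicate 1), -0.13 for S100b (95% interval -0.83 to 0.57), -0.57 for Bdnf (95% interval -2.10 to 0.96) and -0.14 for Ngfr (95% interval -1.08 to 0.81). In cold the difference was 0.05 for Clstn3 (95% interval -1.04 to 1.14), -0.15 for Maoa (95% interval -0.68 to 0.38) and 0.01 for Maob (95% interval -0.48 to 0.51). For both monoamine oxidases these intervals exclude a 2-fold difference between the cold genotypes, whereas those of Clstn3, Bdnf and Ngfr include it. No member was called in the interaction of genotype and temperature, in which 0% of all genes were called and 327 had an unadjusted p under 0.05.

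Markers of nerve fibers and of Schwann cells, the glia of peripheral nerves, were measured beside the members. The summed level of 17 Schwann cell markers, Ngfr and S100b included, was 363 to 598 CPM in TN WT, 381 to 420 CPM in TN HIF2α AKO, 369 to 404 CPM in cold WT and 394 to 417 CPM in cold HIF2α AKO, so the cold and TN libraries overlapped. Among them 16 were tested. In WT 2 rose upon cold, S100b and Cdh19 (log2 fold change 0.68, edgeR adjusted p = 0.05 after rounding), and 1 fell, L1cam (-0.49, edgeR adjusted p = 0.0473). In HIF2α AKO S100b was the 1 gene called. Cdh19 was close to its WT value there, at 0.65, and just missed the limit (edgeR adjusted p = 0.0512), and L1cam was at -0.22 (edgeR adjusted p = 0.292). Over all 15306 tested genes, 15.6% were called and higher in cold in each genotype, and 870 were called and lower in WT. Sox10, the transcription factor that defines the lineage, was at -0.93 in WT (95% interval -2.09 to 0.23) and 0.83 in HIF2α AKO (95% interval -0.34 to 2.01). It was at 2.57 to 14.5 CPM in TN WT against 3.08 to 4.63 CPM in cold WT, and at 2.79 to 3.12 CPM in TN HIF2α AKO against 3.85 to 7 CPM in cold HIF2α AKO, where the groups did not overlap (exact permutation p = 0.1). In HIF2α AKO the fitted change upon cold was positive for 13 of the 16 tested markers, with a median of 0.22, and in WT for 5 of 16, with a median of -0.22. The sums in TN WT replicates 1, 2 and 3 were 454, 363 and 598 CPM, and replicate 3 is the library rich in epithelium markers. How far that library sets the changes in WT, and their contrast with HIF2α AKO, was not tested for this list. The part of Schwann cell content in the rise of S100b was not tested.

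Markers of neurons and axons summed to 24.2 to 39.8 CPM. They were 27.1 to 30.6 CPM in TN WT and 25.5 to 37.1 CPM in cold WT, which overlapped, and 24.2 to 30.0 CPM in TN HIF2α AKO and 36.5 to 39.8 CPM in cold HIF2α AKO, which did not. Of the 16 genes listed, 10 were tested, 2 rose in WT and 3 rose in HIF2α AKO upon cold. The share called and higher in cold over all tested genes was 15.6% in each genotype. The fitted change was positive for 5 of the 10 in each genotype, with medians of -0.01 in WT and -0.08 in HIF2α AKO on the log2 scale. Elavl3, an RNA-binding protein of neurons, rose by 4.11 on the log2 scale in WT (edgeR adjusted p = 0.00271) and 3.88 in HIF2α AKO (edgeR adjusted p = 0.00145), from 1 to 13 counts per TN library to 37 to 150 counts per cold library. Snap25, a protein of synaptic vesicle fusion, rose by 2.30 in WT (edgeR adjusted p = 0.0176) and 2.02 in HIF2α AKO (edgeR adjusted p = 0.0376), with at most 18 counts in a library. Syp, a synaptic vesicle protein, rose in HIF2α AKO from 8.19 ± 2.66 to 16.7 ± 1.08 CPM, by 1.02 on the log2 scale (edgeR adjusted p = 0.0172) and was at 0.43 in WT (edgeR adjusted p = 0.234). Tubb3, a tubulin of neurons, was not called, with 1.62 ± 0.62 CPM in TN WT and 1.48 ± 0.75 CPM in cold WT, and 2.02 ± 0.68 CPM in TN HIF2α AKO and 1.26 ± 0.54 CPM in cold HIF2α AKO (log2 fold changes -0.14 and -0.68). The summed level in HIF2α AKO includes the rises of Syp and of Elavl3, whose mean went from 0.276 CPM at TN to 4.19 CPM in cold. The amount of nerve fiber was not tested.

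Adipocyte markers were higher in cold and differed between libraries of a group. The summed level of 10 adipocyte markers such as Adipoq and Plin1 was 12000 to 29600 CPM in the 6 TN libraries and 24600 to 48000 CPM in the 6 cold libraries. Of these markers, 5 in WT and 2 in HIF2α AKO were themselves called and higher in cold, as were 15.6% of all tested genes in each genotype. TN WT replicate 2 had the lowest sum and the lowest Clstn3 level (7.44 CPM), and TN HIF2α AKO replicate 2 had the highest TN sum and the highest TN levels of Clstn3 (43.0 CPM), Maoa (23.7 CPM) and Maob (72.5 CPM). In cold WT replicate 1 the order was broken, with a sum of 38300 CPM and the lowest Clstn3 level of its group (120 CPM). Cold WT replicate 3 had the highest sum of all libraries and the highest levels of Maoa (30.4 CPM), Maob (85.3 CPM) and Bdnf (0.845 CPM). Per 1000 CPM of adipocyte markers, Clstn3 was at 0.621 to 1.47 CPM in the TN and 3.13 to 6.50 CPM in the cold libraries, and S100b was at 0.138 to 0.220 CPM and 0.343 to 1.03 CPM. On this scale Maob was at 2.45 to 3.36 CPM in the TN libraries and 1.71 to 2.20 CPM in the cold libraries, and Maoa was at 0.726 to 1.24 CPM and 0.499 to 0.879 CPM. Scaled to these markers, Maob was thus lower in every cold than in every TN library, and Maoa overlapped. Since some of the markers used for this scaling themselves rose, the part of adipocyte content in the differences of Clstn3, S100b, Maoa and Maob was not tested.

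**Figure D4:**
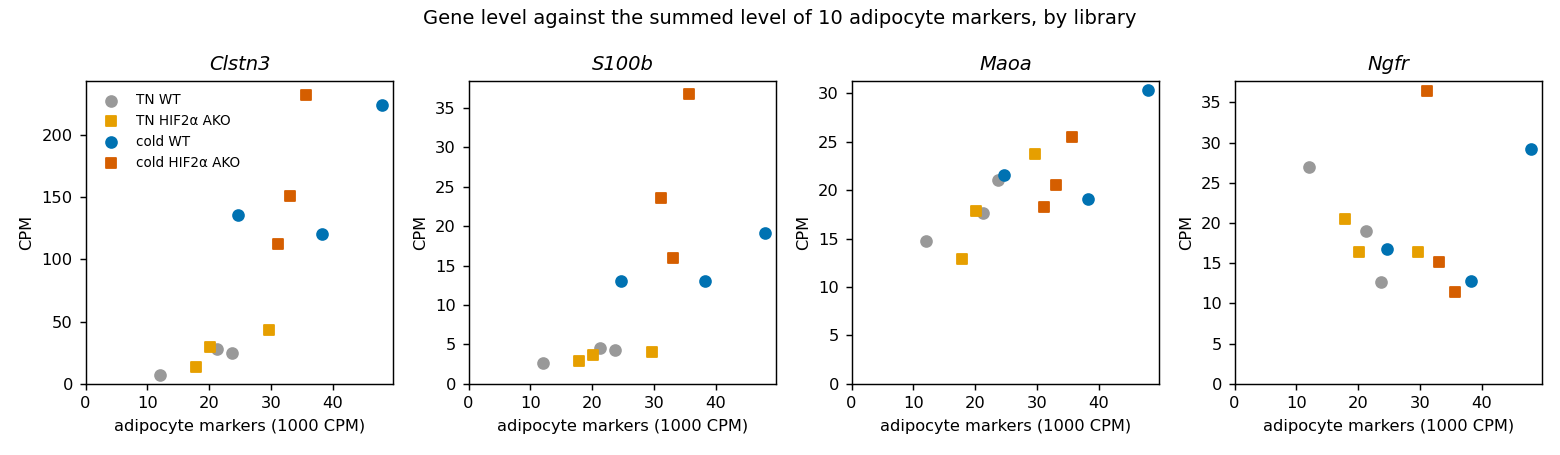
Level of Clstn3, S100b, Maoa and Ngfr (y axes, CPM) against the summed level of 10 adipocyte markers (x axis, 1000 CPM); each point is 1 library. The marker sums run from 12000 to 29600 CPM in the TN and from 24600 to 48000 CPM in the cold libraries, and the cold libraries have the higher levels of Clstn3 and S100b.

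The genes whose log2 CPM followed each member most closely over the 12 libraries were listed as a description. The libraries fall into cold and TN, so a member that rose in cold will resemble many others. Clstn3 was most like Acsl1, an acyl-CoA synthetase (Pearson r = 0.996), and the peroxisome biogenesis genes Pex14 and Pex16 (both 0.993). S100b was most like Gpi1, glucose phosphate isomerase (0.995), Atp5g2, a subunit of ATP synthase (0.992), and Gfm1, a mitochondrial elongation factor (0.991). Maob was most like Glo1 (0.983), Ppp2r1b (0.982) and Sik2 (0.98), and Maoa was most like Pter (0.97), Stk39 (0.965) and Arl1 (0.951). Bdnf was most like Mrpl40 and Cdkl2 (both 0.959) and Pts (0.954), at the low counts given above. The closest match of Ngfr was weaker, with Tti1 at 0.843 and Gng8 and Lphn1 at 0.833.

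Across all libraries, the members differed widely in level. Per kilobase of exon, the mean level was 22.4 CPM for Maob, 18.8 for Clstn3, 8.07 for S100b, 5.65 for Ngfr, 4.87 for Maoa, 0.0625 for Bdnf and 0.00121 for Th. At TN the order in WT was Maob (19.6 ± 4.92), Ngfr (5.68 ± 2.08), Maoa (4.29 ± 0.76), Clstn3 (3.99 ± 2.19), S100b (2.6 ± 0.71) and Bdnf (0.0503 ± 0.0392 CPM per kb), of which Ngfr, Maoa and Clstn3 were within their spread of each other. S100b was also within the spread of Clstn3. In cold WT the order was Clstn3 (32.2 ± 11.3), Maob (24.1 ± 6.12), S100b (10.2 ± 2.32), Maoa (5.69 ± 1.42), Ngfr (5.68 ± 2.48) and Bdnf (0.0872 ± 0.0465 CPM per kb), of which Clstn3 and Maob, and Maoa and Ngfr, were within their spread of each other.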

How the data were processed

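The authors deposited read counts per gene for 12 libraries, made per the labels and methods with Trim Galore 0.4.4, STAR 2.6.1d on GRCm38 and HTSeq 0.13.5; their processing notes also name DESeq2 1.30.0. The annotation and the strand setting are not given in the sources used here. The per-sample tables equalled the series table in all 12 libraries. Tallies of reads outside genes (21.9 to 27.0% of reads listed) were left out. Groups came from the sample titles. The edgeR p-values set each group difference against the spread between mice, estimated over the 4 groups together.

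Counts were analysed in R 4.3.3 with edgeR 4.0.16: filterByExpr (minimum count 10, minimum total 15) kept 15306 genes, TMM factors were 0.829 to 1.20, and 1 factor of 4 groups was fitted by quasi-likelihood, with Benjamini-Hochberg adjustment over all tested genes and a limit of 0.05. Cold against TN in each genotype, HIF2α AKO against WT at each temperature and the interaction were tested. Standard errors and 95% intervals came from the quasi-likelihood F and its degrees of freedom. Exact permutation tests of 3 against 3 were two-sided, with a smallest p of 0.1. CPM per kilobase used the merged exons of a GRCm38 annotation. The scripts were tested on simulated data. Alternatives used limma 3.58.1 and DESeq2 1.42.0, other factors, filters, samples and limits.

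The members and gene lists were chosen with earlier results of these data known. Named beside the members were fixed partners and checks, and up to 4 called genes per list with the largest change, of which those of the lists for other tissues are not described. Some of the partners are not reported here. Like genes were the 3 with the highest Pearson r on log2 CPM (prior count 2). Same-numbered libraries did not pair.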

Additional observations from a re-analysis of the deposited data

How the results depend on the processing

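The calls of Clstn3 and S100b upon cold held in both genotypes under all 21 alternatives each, with log2 fold changes of 2.49 to 3.33 and 2.19 to 2.94 for Clstn3 and 1.66 to 2.12 and 2.49 to 3.09 for S100b in WT and HIF2α AKO. Over all comparisons, 572 of 617 alternative values of single members kept direction and call and 45 changed sign, all of them values that were not called. The study used limits of p under 0.15 and absolute log2 fold change above 0.2, with DESeq2, for cold HIF2α AKO against cold WT. Here these limits were applied to the unadjusted p of the edgeR fit in every comparison. The count of members called was 3 of 6 in each cold against TN comparison, 1 between the cold genotypes and 1 in the interaction. Of all 15306 genes tested, these limits called 8029 in cold against TN WT, 8352 in HIF2α AKO, 1321 between genotypes at TN, 1374 in cold and 1349 in the interaction. DESeq2 called 8 genes between genotypes at TN and 7 in cold, limma voom with quality weights 2 and 2, and the fits of only the groups compared 0 and 0, with 1752 genes for cold against TN WT. Leaving out 1 library gave 1381 to 3722 genes for cold against TN WT (lowest without TN WT replicate 2, with 1469 without cold WT replicate 3 and 1810 without TN WT replicate 1) and 1613 to 4853 for HIF2α AKO (lowest without cold HIF2α AKO replicate 1, with 1735 and 2450 without TN HIF2α AKO replicates 1 and 3). Leaving out both libraries rich in muscle markers, chosen after seeing the data, gave 1514 genes for HIF2α AKO; the cause of these shifts was not tested beyond the smaller number of libraries.

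Same-numbered libraries did not deviate together (5 of 18 pairs with r above 0.1, from -0.43 to 0.39), and a replicate block gave 2561 and 3313 genes for cold against TN in WT and HIF2α AKO, with Clstn3 (3.03 and 2.50) and S100b (1.99 and 2.78) called, and changed no call of a member. Values near 0 turned sign. The cold change of Ngfr in WT was -0.000607 with median-of-ratios factors, -0.15 with upper quartile factors, -0.034 without a filter, -0.0066 with a mean CPM of at least 1, -0.0017 with DESeq2, -0.27 with voom and -0.11 with the replicate block. Maoa at TN between genotypes was -0.023 with upper quartile factors. With voom, Bdnf between cold genotypes was 0.17 and the interaction of Maob 0.084. Without both libraries rich in muscle markers, the genotype difference was -0.22 for Maoa and -0.037 for Maob at TN, and -0.28 for Clstn3 and -0.045 for Maob in cold. Leaving out 1 library, the cold change of Ngfr ranged from -0.40 to 0.28 in WT and -0.42 to 0.53 in HIF2α AKO. The genotype difference at TN ranged from -0.37 to 0.16 for Ngfr, -0.96 to 0.16 for Bdnf, -0.34 to 0.019 for S100b, 0.12 to 0.87 for Clstn3, -0.22 to 0.22 for Maoa and -0.052 to 0.31 for Maob, and in cold from -0.56 to 0.51 for Ngfr, -0.51 to 0.32 for Bdnf, -0.28 to 0.37 for Clstn3, -0.29 to 0.072 for Maoa and -0.12 to 0.22 for Maob. The interaction ranged from -0.42 to 0.64 for Ngfr, -0.31 to 0.89 for Bdnf, 0.52 to 1.12 for S100b, -0.82 to -0.071 for Clstn3, -0.37 to 0.067 for Maoa and -0.29 to 0.092 for Maob. At 2 to 21 counts, depth limits Bdnf most, and Th could not be compared at all.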

Other observations

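Other marker lists of the fat pad were measured beside the members. Over all 15306 tested genes, 15.6% were called and higher in cold in each genotype, and 870 in WT and 1757 in HIF2α AKO were called and lower. Thermogenic markers summed to 28.4 to 90.6 CPM in the TN libraries and 3350 to 8580 CPM in the cold libraries, and 7 of 8 in WT and 8 of 8 in HIF2α AKO were called and higher in cold. Of 10 lymphocyte markers, 1 in WT and 3 in HIF2α AKO were called and lower in cold, among them the B-cell gene Ms4a1 in both (log2 fold changes -0.95 and -0.99, edgeR adjusted p = 0.0437 and 0.0321). Of 9 macrophage markers tested, Mrc1, the mannose receptor, was the 1 called in HIF2α AKO, where it fell (-0.76, edgeR adjusted p = 0.0367). It was at -0.13 in WT, where 0 were called. Macrophages are a known site of norepinephrine uptake and breakdown in fat, which these markers do not measure and which was not tested here. Of 10 endothelium and mural markers, 1 in WT and 2 in HIF2α AKO rose, with the pericyte gene Kcnj8 in both (0.41 and 0.68, edgeR adjusted p = 0.0453 and 0.0047).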
